A study of Solanum lycopersicum var. cerasiforme with 6 samples.

Results

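The gibberellin oxidases of tomato were followed in young inflorescences of plants that carried one or the other allele of the fruit weight locus fw2.3. The 10 genes were taken by locus identifier, with none left out for its values, though earlier results of these data were known. All 10 had a row among the 34081 rows of the count files. They are 4 gibberellin 20-oxidases, GA20ox1 (Solyc03g006880), GA20ox2 (Solyc06g035530), GA20ox3 (Solyc11g072310) and GA20ox4 (Solyc01g093980). There are 2 gibberellin 3-oxidases, GA3ox1 (Solyc06g066820) and GA3ox2 (Solyc03g119910). The 4 gibberellin 2-oxidases are GA2ox1 (Solyc05g053340), GA2ox2 (Solyc07g056670), GA2ox4 (Solyc07g061720) and GA2ox5 (Solyc07g061730). The RefSeq gene table of assembly SLM_r2.1 holds no identifier of the files, but it lists a gene under the name or an older symbol of each of the 10, on the chromosome of the identifier in 10 of 10. Names below therefore rest on assignments that could be checked by position only.

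The plants were F3 progenies of Solanum lycopersicum var. cerasiforme, the cherry tomato, grown unpruned in one greenhouse with the genotypes in random positions. Plants of fw2.3-D carry the derived allele and plants of fw2.3-WT the wild-type allele. Each library was a pool of RNA from 2 plants of one genotype, and there were 3 pools of each, taken while the largest floral bud was below 2 mm. The sources used here give neither plant age nor genotypes at other loci. The comparison asks which genes differ between carriers of the derived and the wild-type allele.

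Gibberellins are diterpenoid hormones that promote stem elongation and have roles in flower and fruit growth. The enzymes named here are dioxygenases that act at the end of the pathway. The 20-oxidases carry out successive oxidations that turn early gibberellins into the direct precursors of the active hormone, the 3-oxidases make the active hormone from these precursors, and the 2-oxidases inactivate it. The balance of 20-oxidase and 2-oxidase expression is known, in Arabidopsis and maize, to help keep active gibberellin low in the shoot meristem.

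Total counts ran from 22303511 to 28504360 per pool. The 7 inflorescence and floral marker genes were each detected in every pool, between 0.916 and 122 RPKM, the deposited reads scaled to gene length and library total. Their summed level was 296 to 316 RPKM in the fw2.3-D pools against 318 to 328 RPKM in the fw2.3-WT pools, and the part of this small gap in the results below was not tested. LAT52, a marker of late pollen, was at 0 in all pools but one, where it had 5 counts, and the ripe fruit polygalacturonase PG2 was at 0 in each pool. The other ripe fruit marker on the list, Solyc09g089580 (entered as E8), was present in each pool, at 1.21 to 2.06 RPKM in fw2.3-D and 1.48 to 2.23 RPKM in fw2.3-WT, from 53 to 101 counts. The first pools of both genotypes resembled each other: over all tested genes, their deviations from their genotype means correlated at 0.357.

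No gibberellin oxidase was called different between the genotypes, and most were expressed at low levels that varied widely between pools of one genotype. Of the 10 members, 5 had a mean above 1 RPKM: GA2ox5, GA2ox4, GA20ox2, GA20ox1 and GA2ox2. All 10 lay below the median of the tested genes, 13.1 RPKM. The filter on low counts (filterByExpr of edgeR) left 7 members for testing, and GA20ox3, GA3ox2 and GA2ox1 had too few counts. At a Benjamini-Hochberg adjusted p under 0.05 in the quasi-likelihood test of edgeR, 0 of the 7 tested members were called, beside 0.0239% of the 20942 genes tested. At an unadjusted p under 0.05, 0 of the 7 passed, beside 3.56% of all tested genes. DESeq2 also called 0 members and had 0 at an unadjusted p under 0.05.

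**Figure D1:**
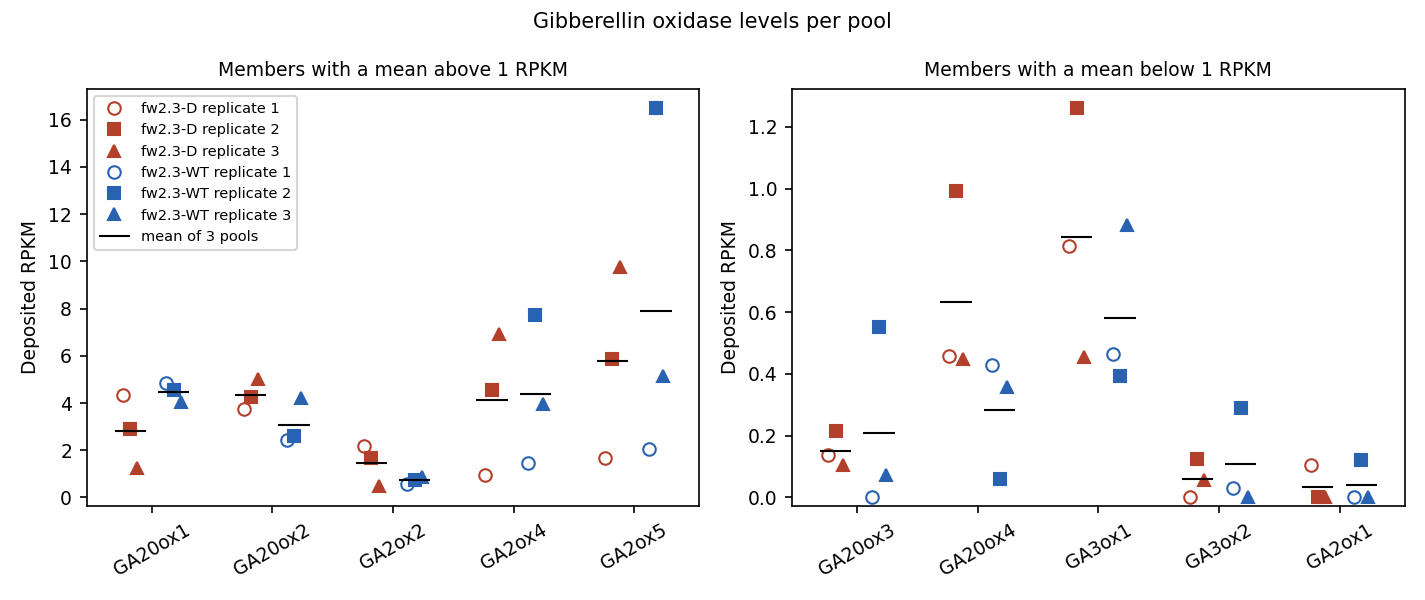
Deposited RPKM of each gibberellin oxidase (vertical axis, linear, with its own scale in each panel) in the 6 pools, with fw2.3-D in red and fw2.3-WT in blue; circles, squares and triangles are replicates 1, 2 and 3, and black lines are means of 3 pools. GA2ox4 and GA2ox5 were lowest in the first pool of each genotype (open circles), and GA20ox1 ranged from 1.25 to 4.35 RPKM in fw2.3-D but from 4.04 to 4.85 RPKM in fw2.3-WT.

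Ordered by mean level over the 6 pools, GA2ox5 stood first at 6.84 ± 5.56 RPKM (SD, n = 6), and GA2ox4 followed at 4.26 ± 2.76 RPKM (SD, n = 6). GA20ox2, at 3.70 ± 1.00 RPKM, and GA20ox1, at 3.65 ± 1.36 RPKM (SD, n = 6), were next. GA2ox2 had 1.09 ± 0.685 RPKM, GA3ox1 0.712 ± 0.338 RPKM and GA20ox4 0.458 ± 0.303 RPKM (SD, n = 6). GA20ox3, GA3ox2 and GA2ox1 were last, at 0.18, 0.084 and 0.0374 RPKM. The ranges of each pair of neighbours in this order overlapped. Within pools the order was steadier for some pairs: GA2ox5 was above GA2ox4, GA20ox1 above GA2ox2 and GA3ox1 above GA20ox4 in 6 of 6 pools each. GA2ox4 was above GA20ox2 in 3 of 6 pools, and GA20ox2 above GA20ox1 in 3 of 6, so these 3 genes have no settled order.

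Among the 20-oxidases, GA20ox1 and GA20ox2 supplied 85.5% to 95% of the summed RPKM of the class in each pool. GA20ox1 had 4.35, 2.89 and 1.25 RPKM in the fw2.3-D pools, replicates 1 to 3, against 4.85, 4.55 and 4.04 RPKM in the fw2.3-WT pools. The fw2.3-WT pools were close together, while fw2.3-D spread widely and its first pool lay within the fw2.3-WT range, so the groups overlapped. The lowest pool, fw2.3-D replicate 3, held 46 counts, and the others held 121 to 175. The fitted level of GA20ox1 was 1.55-fold lower in fw2.3-D, which did not pass the test, with a log2 fold change of -0.63 (SE 0.380, 95% interval -1.48 to 0.22, edgeR adjusted p = 0.948). It was -0.28 without fw2.3-D replicate 3 and -1.11 without fw2.3-D replicate 1. The bulk libraries cannot tell fewer cells that express a gene apart from less RNA per cell, for this gene and for the others.

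GA20ox2 had 3.73, 4.24 and 5 RPKM in the fw2.3-D pools against 2.44, 2.60 and 4.2 RPKM in the fw2.3-WT pools. Its fw2.3-WT replicate 3 stood among the fw2.3-D pools, and the other fw2.3-WT pools lay below all of them. It gave a log2 fold change of 0.51 (SE 0.248, 95% interval -0.04 to 1.07), the smallest unadjusted p of any member (0.0664), with an edgeR adjusted p of 0.948. GA20ox2 was the steadiest of the tested members, with a standard deviation within genotype of 0.302 on the log2 CPM scale (CPM are counts scaled to the library total with TMM factors).

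The pools ranked in exactly opposite order for GA20ox1 and GA20ox2. Spearman's rho over the 6 pools was -1 (exact permutation p = 0.00278, the smallest that the 6 pools can give for a rank correlation, and 0.0292 adjusted over the 21 pairs of tested members). Pearson's r of log2 CPM was -0.752 (exact permutation p = 0.0611, adjusted p = 0.481), and -0.784 without the 2 pools farthest from the median of GA20ox1. Both permutations shuffle all 6 pools freely. Their p-values therefore do not set aside genotype or the deviations that pools share across genes. The order was also opposite among the 3 pools of each genotype, which are too few for a coefficient. The ratio of GA20ox1 to GA20ox2 RPKM was 1.16, 0.682 and 0.250 in the fw2.3-D pools, against 1.99, 1.75 and 0.962 in the fw2.3-WT pools. The genotypes overlapped in this ratio through fw2.3-D replicate 1 and fw2.3-WT replicate 3.

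Summed over the 4 members, 20-oxidase transcript varied little between pools. The class total was 8.67, 8.34 and 6.80 RPKM in the fw2.3-D pools against 7.73, 7.76 and 8.67 RPKM in the fw2.3-WT pools, a range of 1.28-fold. The means were 7.94 ± 0.998 RPKM in fw2.3-D and 8.05 ± 0.535 RPKM in fw2.3-WT (SD, n = 3), closer than the spread within either genotype.

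GA20ox4 had 0.459, 0.994 and 0.447 RPKM in the fw2.3-D pools, from 18, 43 and 17 counts. It had 0.429, 0.0591 and 0.358 RPKM in the fw2.3-WT pools, from 16, 2 and 13 counts. It was the only tested member whose pools did not overlap between the genotypes, by a margin of 0.447 against 0.429 RPKM. Over all tested genes, 9.49% did not overlap. The log2 fold change of GA20ox4 was 1.17 (SE 0.643, 95% interval -0.27 to 2.60, edgeR adjusted p = 0.948), an estimate that rests on few counts. It ran from 0.69 without fw2.3-D replicate 2 to 1.62 without fw2.3-WT replicate 1, and was 0.70 without fw2.3-WT replicate 2. GA20ox3 had 4, 7 and 3 counts in fw2.3-D, against 0, 14 and 2 in fw2.3-WT. Its second fw2.3-WT pool held 14 of its 30 counts, and it was not tested.

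**Figure D2:**
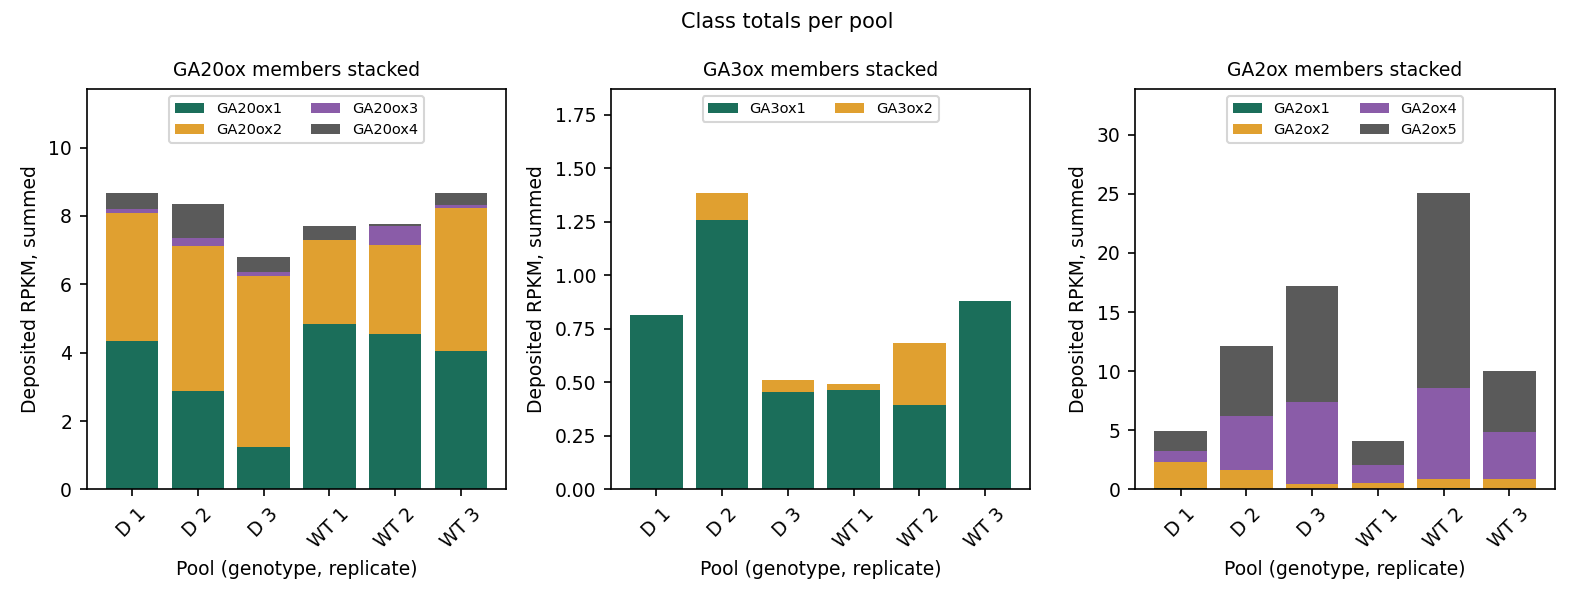
Deposited RPKM of the members of each class, stacked per pool (bars; D and WT with the replicate number on the horizontal axis; linear scale starting at 0, different in each panel). The GA20ox total stayed between 6.80 and 8.67 RPKM while the parts of GA20ox1 and GA20ox2 changed, and the GA2ox total ran from 4.11 to 25.0 RPKM.

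The 3-oxidases, which make the active hormone, had the lowest class total, 0.494 to 1.39 RPKM per pool. GA3ox1 supplied most of it, with 0.816, 1.26 and 0.455 RPKM in the fw2.3-D pools against 0.465, 0.394 and 0.881 RPKM in the fw2.3-WT pools. High and low pools occurred in both genotypes, and the groups overlapped. Between the genotypes its log2 fold change was 0.57 (SE 0.521, 95% interval -0.59 to 1.73, edgeR adjusted p = 0.948). Leaving out fw2.3-D replicate 2 or 3 gave 0.17 or 0.87, and leaving out fw2.3-WT replicate 2 or 3 gave 0.36 or 0.97. GA3ox2 had 0, 5 and 2 counts in fw2.3-D, against 1, 9 and 0 in fw2.3-WT. With 0 counts, a level of up to 0.105 to 0.135 CPM remains possible in a pool (a floor of 3 counts, counting error only). Fitted without the filter, GA3ox2 did not pass (unadjusted p = 0.627, edgeR adjusted p = 0.952), and neither did GA20ox3 or GA2ox1 (adjusted p = 0.968 and 0.997).

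The 2-oxidases, which inactivate the hormone, varied most between pools. The class total was 4.93, 12.1 and 17.2 RPKM in the fw2.3-D pools against 4.11, 25.0 and 9.98 RPKM in the fw2.3-WT pools, a range of 6.09-fold. The first pool of each genotype was the lowest, and the genotypes overlapped. GA2ox4 and GA2ox5 made up 85.7% to 97.2% of the class total in the pools other than fw2.3-D replicate 1, and 53.2% there. These totals and shares cover the 4 listed members only. They leave out Solyc02g080120, entered on the pathway list from memory as a further 2-oxidase, which could not be checked. That locus had a mean of 2.82 RPKM over the pools, and 3.75 RPKM in fw2.3-D replicate 1.

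GA2ox5 had 1.68, 5.88 and 9.77 RPKM in the fw2.3-D pools against 2.06, 16.5 and 5.15 RPKM in the fw2.3-WT pools, from 55 to 464 counts. The second fw2.3-WT pool was the highest and the first pools of both genotypes the lowest, 9.78-fold apart at the extremes. The log2 fold change was -0.43 (SE 0.699, 95% interval -2 to 1.13, edgeR adjusted p = 0.956), and without the second fw2.3-WT pool it was 0.70. GA2ox4 had 0.938, 4.56 and 6.94 RPKM in the fw2.3-D pools against 1.47, 7.71 and 3.96 RPKM in the fw2.3-WT pools. The pools ranked as for GA2ox5, and the means of the genotypes, 4.15 ± 3.02 and 4.38 ± 3.14 RPKM (SD, n = 3), were much closer than their spread. Its log2 fold change was -0.06 (SE 0.653, 95% interval -1.52 to 1.40, edgeR adjusted p = 0.995). It turned to 0.40 without fw2.3-D replicate 1 and to 0.64 without fw2.3-WT replicate 2.

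GA2ox4 and GA2ox5 have adjoining identifiers on chromosome 7, and the RefSeq table also lists no coding gene between the genes of these names. Their log2 CPM correlated at r = 0.972 over the 6 pools (exact permutation p = 0.00139, the smallest that the 6 pools can give, and 0.0292 adjusted over 21 pairs). Spearman's rho was 1 (exact permutation p = 0.00278, adjusted p = 0.0292), and r was 0.959 without the 2 pools farthest from the median of GA2ox4. The order was also shared among the 3 pools of each genotype. These permutations too shuffle all 6 pools freely, with the limits given for GA20ox1 and GA20ox2. Of 20941 genes ordered by r with GA2ox5, GA2ox4 stood at place 49, so so close a correlation was not particular to the neighbours. GA2ox4 had 0.468 to 0.775 times the RPKM of GA2ox5 in each pool. The sources used here do not say how reads that match both neighbours were counted, so the division between them is uncertain. With their counts summed, the log2 fold change was -0.28 (SE 0.672, 95% interval -1.79 to 1.22, edgeR adjusted p = 0.969).

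The spread of the pair within genotypes was among the widest of all genes. The standard deviation of log2 CPM within genotype was 1.32 for GA2ox4 and 1.37 for GA2ox5, where the median of tested genes was 0.213. Of all tested genes, 99.5% had a smaller spread than GA2ox4 and 99.6% a smaller one than GA2ox5. GA20ox1, with 0.661, lay above 93.3% of tested genes, GA20ox2 above 69.1%, and the remaining 3 tested members above 91.5% to 97.6%. Counting error adds to the spread of genes with few counts, such as GA20ox4 and GA3ox1, and its part was not tested. The first pools, which deviated together across genes, were the lowest for the pair, and the part of whatever sets them apart was not tested. With both first pools left out, the log2 fold change was -0.01 for GA2ox4 and -0.46 for GA2ox5.

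GA2ox2 had 2.2, 1.66 and 0.479 RPKM in the fw2.3-D pools, from 71, 59 and 15 counts. It had 0.587, 0.755 and 0.871 RPKM in the fw2.3-WT pools, from 18, 21 and 26 counts. The fw2.3-WT pools were alike, and of the fw2.3-D pools 2 lay above and 1 below all of them. The log2 fold change was 1.00 (SE 0.532, 95% interval -0.19 to 2.19, edgeR adjusted p = 0.948). The estimate was 1.42 without fw2.3-D replicate 3 and 0.55 without fw2.3-D replicate 1. GA2ox1 had 3 counts in 1 pool of each genotype and 0 in the other 4 pools, so it was at or near the floor throughout.

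**Figure D3:**
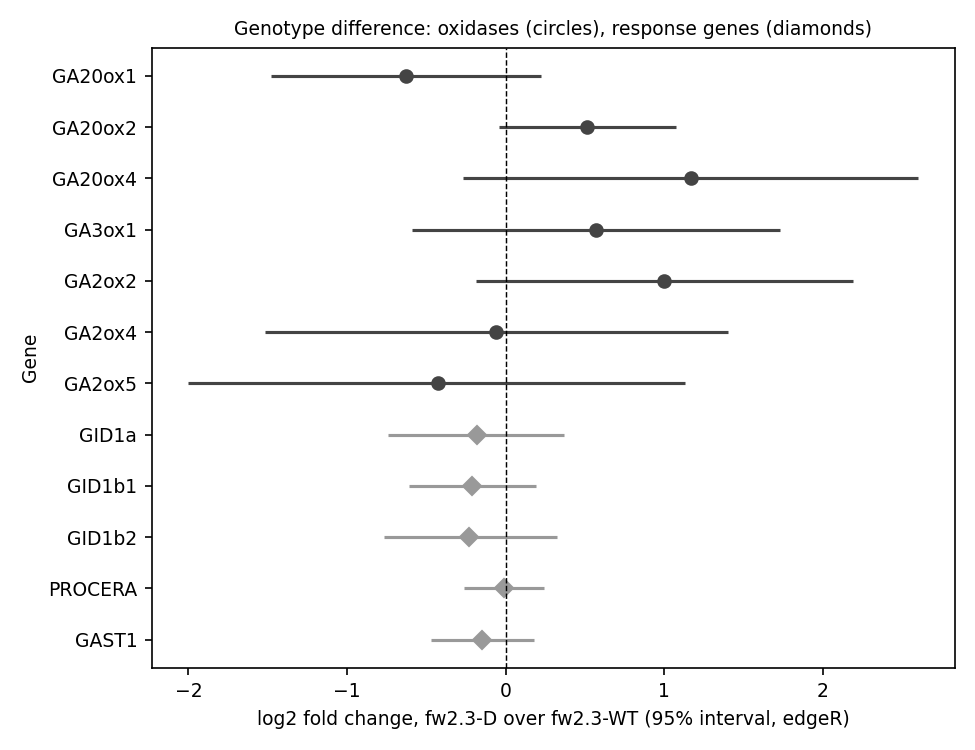
Log2 fold change of fw2.3-D over fw2.3-WT (points) with its 95% interval from edgeR (lines) for the 7 tested gibberellin oxidases (circles) and 5 genes of gibberellin perception and response (diamonds). The interval of each oxidase holds 0, and the lines are long: that of GA2ox5 runs from -2 to 1.13, while that of PROCERA runs from -0.26 to 0.24.

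Taken by their estimates, 4 tested members had higher and 3 lower values in fw2.3-D. Their median log2 fold change was 0.51. Over all tested genes the median was 0.00, and 50.2% had a value above 0. The intervals of all 7 held 0. They are wide enough that changes of more than 2-fold were not excluded for any of the 7: the upper bound for GA20ox2 was a 2.10-fold higher level in fw2.3-D, and the lower bound for GA20ox1 was 0.358 of the fw2.3-WT level.

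Other genes of the gibberellin pathway were given by a list of 13 loci, of which 12 had a row and 10 were tested. By edgeR 0 of the 10 were called, beside 0.0239% of all tested genes, and 1 had an unadjusted p under 0.05, beside 3.56%. For 7 of the 13 loci the RefSeq table has the listed name on the same chromosome. Of these 7, 5 were tested, and 0 were called or had an unadjusted p under 0.05. The other 6 were listed from memory, and whether each belongs to the pathway could not be checked. CPS, which makes the first committed intermediate of gibberellin synthesis, and GA2ox3, a further 2-oxidase, are among the 7 loci named in RefSeq. They had 33 and 28 counts over the 6 pools and were not tested. The gibberellin receptors GID1a, GID1b1 and GID1b2 had log2 fold changes of -0.18, -0.21 and -0.23 (edgeR adjusted p = 0.953, 0.948 and 0.948). PROCERA, the DELLA protein that represses gibberellin responses, lay at 108 ± 1.60 RPKM in fw2.3-D and 111 ± 4.31 RPKM in fw2.3-WT (SD, n = 3). Its log2 fold change was -0.01 (SE 0.111, 95% interval -0.26 to 0.24, edgeR adjusted p = 0.995). GAST1, a transcript known to be induced by gibberellin in tomato, had 52.5 ± 4.08 RPKM in fw2.3-D and 59.0 ± 9.34 RPKM in fw2.3-WT (SD, n = 3). The log2 fold change of -0.15 had an SE of 0.146 (edgeR adjusted p = 0.948).

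The 6 loci of the pathway list that could not be checked are given without a name. Solyc07g066670 had no row. Solyc12g006460, which may not be a gibberellin gene, had the highest level, 221 ± 70.8 RPKM (SD, n = 6). Its fold change was 0.16 on the log2 scale (edgeR adjusted p = 0.962). Solyc04g083160 and Solyc04g078390 had log2 fold changes of -0.12 and -0.10 (edgeR adjusted p = 0.956 and 0.953). Solyc10g007860 had the smallest p of the list. It had 15.7, 12.4 and 8.57 RPKM in the fw2.3-D pools against 3.99, 7.86 and 5.36 RPKM in the fw2.3-WT pools, so the genotypes did not overlap. Its log2 fold change was 1.12 (SE 0.281, 95% interval 0.49 to 1.75, unadjusted p = 0.00269). It did not pass over all genes with edgeR (adjusted p = 0.908) and did with DESeq2 (adjusted p = 0.0454). Solyc02g080120 had 3.21 ± 1.34 RPKM in fw2.3-D and 2.42 ± 0.553 RPKM in fw2.3-WT (SD, n = 3). Its log2 fold change was 0.43 (SE 0.354, edgeR adjusted p = 0.948).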

How the data were processed

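Non-stranded libraries of polyA RNA were sequenced, per the labels' protocols. The deposited files hold raw read counts per gene, and a deposited table holds RPKM by the authors on build SL4.0, per the file headers. Per the submitters' processing notes, cutadapt, STAR and edgeR were used, with no versions. The sources used here do not give the counting program or the treatment of reads with several matches. For 10 of the 10 oxidases, counts and RPKM implied one gene length in every pool within 0.05 base (1116 to 1517 bases). The files give no coordinates, and no sequences were used here.

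The 10 genes, the pathway list and the tests were chosen with earlier results of these data known. Beside the markers, the genes set to be named were the 10 oxidases, pathway genes at an unadjusted p under 0.05, GA2ox3 and Solyc02g080120. The 3 genes most like the oxidase of highest level were also set. The CPS, receptor, PROCERA and GAST1 values were added after they were seen. So were those of Solyc12g006460, Solyc04g083160 and Solyc04g078390, and the mention of Solyc07g066670, which had no row. Counts over all 34081 rows were tested with edgeR 4.0.16 in R 4.3.3 (glmQLFit, glmQLFTest, two-sided, TMM factors, filterByExpr with a minimum count of 10, genotype as the single term). P-values were Benjamini-Hochberg adjusted over 20942 genes. The SE is the log2 fold change over the square root of F. The intervals use the t quantile of the fit. The code of the test was run on counts simulated independently per pool from the dispersions fitted here. That run cannot show how the test fares where pools deviate together. Pools are separate groups of plants, so p-values measure the spread between them. Alternatives were DESeq2 1.42.0, RLE factors, library totals, other filters, a robust fit, the replicate block, pools left out, and limma 3.58.1 on log2(RPKM + 1) and log2(RPKM + 0.1). Correlations used log2 CPM with a prior count of 2 and all pairings of 6 pools (scipy 1.17.1).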

Additional observations from a re-analysis of the deposited data

How the results depend on the processing

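No oxidase was called by edgeR, DESeq2 or limma under any alternative run, and at an unadjusted p under 0.05 there were 2 of 7 with the replicate block, where 4.31% of all tested genes passed, and 0 or 1 elsewhere (2% to 6.94% of all tested genes). The count of all genes called, 5 as reported, became 10 with the replicate block, 13 when no filter was set, 48 with DESeq2 and 21 with the first pool of each genotype left out. It was 0 with limma on log2(RPKM + 1), 0 on log2(RPKM + 0.1) (774 and 746 genes had an unadjusted p under 0.05). A threshold of 0.01 left 0, and leaving out single pools gave 0 to 18. The count of genes of the pathway list called, 0 as reported, was 1 with DESeq2, beside 48 of all 25863 genes fitted. This was Solyc10g007860, whose place in the pathway could not be checked. The cause of these differences was not tested. The log2 fold changes of GA20ox1, GA20ox2, GA20ox4, GA3ox1 and GA2ox2 kept their sign in each alternative that gave a value (0.38 to 0.77 for GA20ox2 with each pool left out), and GA20ox4 and GA3ox1 had none with the filter of 1 CPM in 3 pools. With each pool left out, GA2ox4 ran from -0.64 to 0.64 and GA2ox5 from -1.03 to 0.70, and both kept their sign in the other alternatives. Pools with the same number deviated together at correlations of 0.357, -0.085 and 0.0613, so the numbers did not pair the pools throughout. Across unlike numbers the correlations ran from -0.336 to 0.253, the highest for fw2.3-D replicate 3 with fw2.3-WT replicate 2. Under the replicate block GA20ox1 had a log2 fold change of -0.78 and GA20ox2 of 0.54, with unadjusted p of 0.032 and 0.0374 and adjusted p of 0.895 for both (edgeR). Depth limits GA20ox3, GA3ox2 and GA2ox1, with 30, 17 and 6 counts in all.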

Other observations

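The 3 tested genes whose log2 CPM followed GA2ox5 most closely over the 6 pools were Solyc05g042030 on chromosome 5, Solyc10g085720 on chromosome 10 and Solyc07g054420 on chromosome 7. Their Pearson correlations were 0.999, 0.996 and 0.996, out of 20941 genes compared over only 6 pools that also share depth and composition, so values this high are given as a description. GA2ox4 stood at place 49 in the same order. The nearest of them, Solyc05g042030, ranged from 69.8 to 115 CPM, far less in proportion than GA2ox5, from 2.2 to 20.7 CPM. Its log2 fold change between the genotypes was -0.06 (edgeR adjusted p = 0.974).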
